A study of Mus musculus with 6 samples.

Results

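The mouse mitochondrial genome carries 37 genes, all of which were rows of the deposited count tables with a symbol that begins with mt-, and these rows were the members described here, out of 54525 gene rows in all. They are 13 mRNA genes, 2 rRNA genes and 22 tRNA genes. RNA-seq was performed on C2C12 cells, a mouse myoblast line, as proliferating myoblasts (D0) and as myotubes (D5). D0 cells were kept in DMEM with fetal bovine serum, and D5 cells had been held for 5 days in low-serum medium with horse serum, which lets the cells leave the cycle and fuse. Each group had 3 cultured samples, labelled wild type and untreated, so the groups differ in differentiation and in serum together. The labels do not say more on how separate the cultures were, so p-values measure the spread between these 6 samples, which may be partly technical.

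Mitochondrial DNA is a small circle that is transcribed on both strands into long RNAs, which are then cut apart, mostly at the tRNAs that lie between the other genes. Its mRNAs encode core subunits of respiratory complexes I, III and IV and of the ATP synthase (complex V), its rRNAs and tRNAs serve the ribosomes inside the organelle, and every other protein of the mitochondrion comes from nuclear genes. Muscle cells use these complexes to make ATP for contraction, and differentiating muscle cells are known to build up their mitochondria. Copies of stretches of mitochondrial DNA also sit in the nuclear chromosomes, where they are annotated as pseudogenes.

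The members lie between bases 1 and 15422 of chrM in GRCm38 (GENCODE M21 annotation), each as a single exon, with 28 genes on the plus strand and 9 on the minus strand (*mt-Nd6* and 8 tRNAs). Nuclear copies bear directly on what a count can mean for some of them. A stretch of *mt-Co2*, the gene of cytochrome c oxidase subunit 2, is shown with 2 of its nuclear copies, read in the direction of the gene at chrM:7534-7633 (plus strand), chr1:24614945-24615044 (minus strand) and chr2:22587354-22587453 (minus strand). Capitals mark the 4 positions of these 100 bases at which *Gm13341* differs, and *Gm28661* has no difference here or over all 681 bases compared. The stretch was picked among those without gaps for its many differences from *Gm13341*. The whole alignment of that copy had 16 mismatches over 684 bases (95.9% identity, gaps included).
mt-Co2: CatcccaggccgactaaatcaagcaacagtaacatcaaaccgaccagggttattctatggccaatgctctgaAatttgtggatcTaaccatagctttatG
Gm28661: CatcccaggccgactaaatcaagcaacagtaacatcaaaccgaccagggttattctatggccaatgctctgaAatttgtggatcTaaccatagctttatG
Gm13341: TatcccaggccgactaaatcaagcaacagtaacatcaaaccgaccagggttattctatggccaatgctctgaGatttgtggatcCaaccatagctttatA

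*mt-Nd3*, a complex I subunit, differs from its copy *Gm28438* at 1 of 345 bases, which falls at the start codon and is in capitals in the first 61 bases of both (chrM:9459-9519 on the plus strand and chr1:24613059-24613119 on the minus strand).
mt-Nd3: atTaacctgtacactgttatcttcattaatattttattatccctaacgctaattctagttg
Gm28438: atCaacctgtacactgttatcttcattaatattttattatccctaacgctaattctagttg

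Neighbouring mitochondrial genes also share bases with each other. *mt-Atp8* (chrM:7766-7969) and *mt-Atp6* (chrM:7927-8607), both ATP synthase subunits, share the 43 bases in capitals on the plus strand (chrM:7907-7989 is shown). *mt-Nd5* on the plus strand and *mt-Nd6* on the minus strand share the 14 bases in capitals (chrM:13532-13585, plus strand). The tRNAs *mt-Tw* (chrM:4950-5016) and *mt-Ti* (chrM:3706-3774), described further on, share only the bases in capitals with a neighbour, and *mt-Tm* (chrM:3845-3913) shares none.
mt-Atp8 and mt-Atp6: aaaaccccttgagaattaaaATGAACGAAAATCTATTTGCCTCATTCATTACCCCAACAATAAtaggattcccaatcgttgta
mt-Nd5 and mt-Nd6: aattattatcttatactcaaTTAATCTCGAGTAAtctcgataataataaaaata
mt-Tw: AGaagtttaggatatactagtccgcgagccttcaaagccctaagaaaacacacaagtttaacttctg
mt-Ti: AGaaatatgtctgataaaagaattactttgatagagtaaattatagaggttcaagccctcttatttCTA
mt-Tm: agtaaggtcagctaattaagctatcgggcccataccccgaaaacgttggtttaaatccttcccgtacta

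The libraries held 36555048 to 40895840 gene counts at D0 and 25449759 to 25811300 at D5. Levels are CPM, that is, counts per 1000000 after scaling of each library by its edgeR TMM factor. Of 16290 genes that passed edgeR's filter on low counts, 82.9% were called changed, 42.2% higher and 40.8% lower at D5 (edgeR's quasi-likelihood test, adjusted p under 0.05). Myotube markers (*Myog*, *Mymk*, *Ckm*, *Acta1*, *Myh3* and *Tnnt3*) summed to 56.6 to 70.3 CPM at D0 and 11923 to 12753 CPM at D5, and all 6 of 6 were called higher. Endothelial markers summed to 2.46 to 2.97 CPM at D0 and 0.324 to 0.402 CPM at D5, with *Kdr* called lower (log2 fold change -3.52), and leukocyte markers to 3.05 to 3.31 and 1.85 to 2.60 CPM, with *Cd68* called lower (-0.50) and *Adgre1* at 0 counts in all 6 libraries. Adipocyte markers summed to at most 0.0405 CPM. The part of such cells in the results was not tested. Among the neuronal markers *Rbfox3* was at 0 counts throughout, while *Tubb3*, a tubulin, made up nearly all of a sum that fell from 217 to 225 CPM at D0 to 4.10 to 4.46 CPM at D5.

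The mitochondrial genes together took a larger share of the gene counts in the myotubes. Their share was 1.57%, 1.45% and 1.56% in the D0 libraries and 2.55%, 2.33% and 2.40% in the D5 libraries. Every D5 library lay above every D0 library. The mean rose from 1.53% ± 0.0665 to 2.43% ± 0.109 (SD, n = 3 each), a ratio of 1.59. An exact two-sided permutation test gave p = 0.1, the smallest that 3 against 3 libraries allow (0.133 after adjustment over 4 shares). The 95% Wilson interval of each library's share extended 0.0061 percentage points or less to each side, which covers counting error only. In such bulk samples, more cells with a given level and more RNA per cell cannot be told apart.

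Nearly all of this signal came from mRNAs. The 13 mRNAs held 573872 to 656315 counts per library, the 22 tRNAs 851 to 1194, and the 2 rRNAs at most 2. Of the 37 members, 21 passed the filter and were tested, and 16 were not, all of the latter with at most 12 counts in any library. Among the 21, 11 were called higher and 4 lower at D5, and 6 had no call, beside the 42.2% and 40.8% of all genes given above. *mt-Atp8* reached the filter's level only in the D0 libraries, so that a lower value at D5 was partly built into its being tested, and *mt-Nd3* at D5 and *mt-Te* and *mt-Ta* at D0 reached it in 2 of 3 libraries. The median log2 fold change was 0.23 over the 21 and 0.15 over the mRNAs, beside 0.0022 over all genes tested. Every D5 library was above every D0 library for 10 of the 21 and below for 3, beside 42.2% and 41.1% of all genes tested. Without any scaling, which leaves the lower gene counts of D5 in, the median of all genes moved to -0.68. Of the 14306 genes then called, 23.4% were higher. When libraries were scaled to the ERCC spike-ins the median moved to -0.58, and 32.6% of the 5560 genes then called were higher. These synthetic RNAs took 0.726% to 0.859% of all counts at D0 and 0.720% to 2.09% at D5.

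Among the mRNAs, 7 had at least 11945 counts in every library and held 99.66% to 99.91% of the mitochondrial mRNA counts. These were *mt-Nd1*, *mt-Nd2*, *mt-Nd4*, *mt-Nd5* and *mt-Nd6* of complex I, *mt-Cytb* of complex III and *mt-Co1* of complex IV. All 7 were called higher at D5 with every D5 library above every D0 library, while the direction of *mt-Nd1*, *mt-Nd2* and *mt-Cytb* turned to -0.53, -0.083 and -0.10 (log2) without scaling, and that of *mt-Nd1* and *mt-Cytb* to -0.42 and -0.0018 with ERCC scaling. Relative to the shifted median of all genes, the log2 fold changes of the 7 stood between 0.15 and 1.26 without scaling and between 0.15 and 1.27 with ERCC scaling. Either scaling shifts all genes by nearly the same amount, so these values restate those under TMM scaling and add no separate support. With ERCC scaling 0 of the 21 members passed the threshold as higher in edgeR's test, 0 did so at an unadjusted p under 0.05, and 3 passed as lower. Over all genes 32.6% of the calls were higher in that setting. ERCC counts ran from 184602 to 546930 at D5, and SEs were wide (0.54 for *Gm28661*, against 0.068 with TMM). A rise such as that of *mt-Nd5* (0.69 with ERCC scaling) could thus be missed. DESeq2 with its own size factors called 10 higher and 3 lower.

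**Figure D1:**
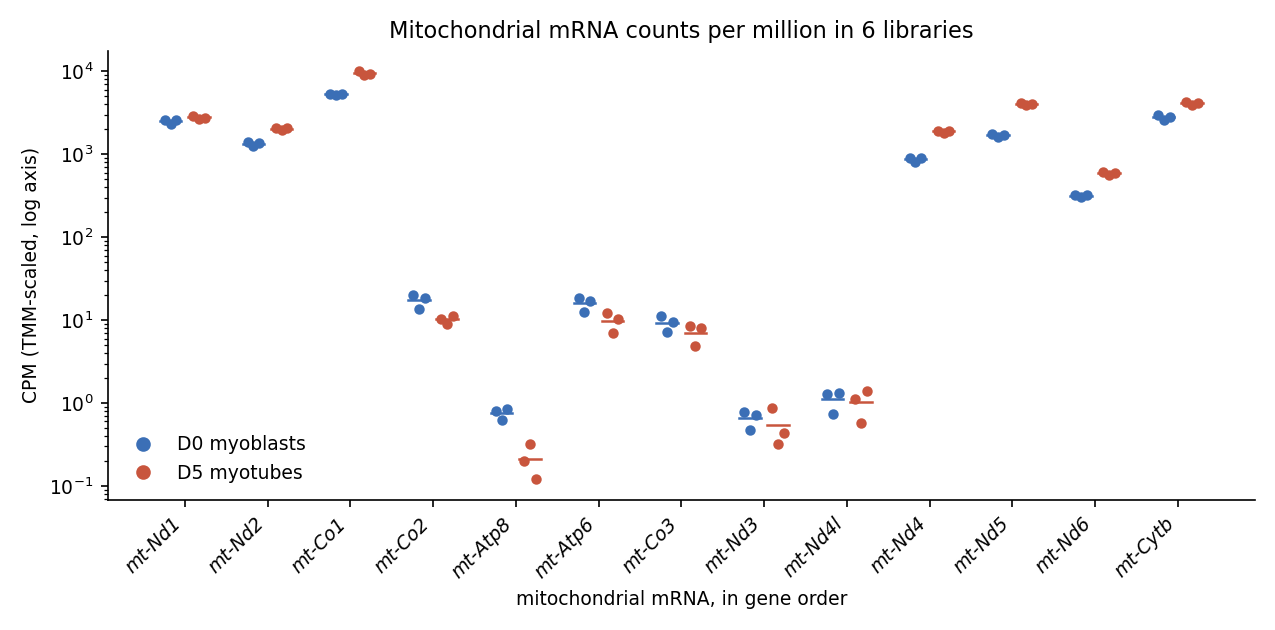
Each point is the CPM (log axis) of 1 library for 1 of the 13 mitochondrial mRNAs in their order along the genome, with D0 in blue, D5 in red and the group mean as a line. The 7 abundant mRNAs lie at or above 304 CPM in every library and higher at D5 (with ERCC scaling *mt-Nd1* and *mt-Cytb*, and without scaling also *mt-Nd2*, turn to lower), and the 6 from *mt-Co2* to *mt-Nd4l* lie at or below 20.1 CPM.

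Complex I takes electrons from NADH, and its mitochondrial subunits form the part that sits in the membrane and pumps protons. *mt-Nd5* (chrM:11742-13565), a large pump subunit, reached 1760.4, 1600.2 and 1694 CPM in the D0 libraries and 4196, 3904 and 4029.5 CPM in the D5 libraries. The groups were far apart, and the mean went from 1685 ± 80.5 to 4043 ± 146 CPM (SD, n = 3), with the highest log2 fold change of the 21 tested members, 1.26 (SE 0.037, adjusted p = 1.4e-23 by edgeR's quasi-likelihood test). *mt-Nd4* (chrM:10167-11544), another pump subunit, was at 912, 811 and 896 CPM at D0 and at 1926, 1822 and 1916 CPM at D5. It rose by 1.11 on the log2 scale (SE 0.038, edgeR adjusted p = 7.15e-22), with every D5 library above every D0 library.

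*mt-Nd6* (chrM:13552-14070) is the only mRNA on the minus strand. Its D0 libraries gave 319, 304 and 319 CPM and its D5 libraries 619, 568 and 592 CPM, again without overlap, and it rose by 0.92 (SE 0.035, edgeR adjusted p = 7.75e-21). Whether strand was used in counting is not given in the sources used here, so its reads and reads of RNA from the opposite strand cannot be told apart. *mt-Nd2* (chrM:3914-4951), the third of the pump subunits, gave 1395, 1269 and 1369.9 CPM at D0 and 2078, 1976 and 2046 CPM at D5, a rise of 0.60 (SE 0.036, edgeR adjusted p = 1.2e-15).

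*mt-Nd1* (chrM:2751-3707), the subunit at the joint of the membrane part and the quinone site, changed least of the 7. The D0 libraries held 2609.9, 2305 and 2604 CPM and the D5 libraries 2915, 2686 and 2745 CPM. The lowest D5 library stood only just above the highest D0 library. The mean went from 2506 ± 174 to 2782 ± 118 CPM, a log2 fold change of 0.15 (SE 0.041, edgeR adjusted p = 0.0013), and the call was lost with scaling by total counts alone (0.066).

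*mt-Cytb* (chrM:14145-15288), the cytochrome b subunit of complex III, which passes electrons from quinol to cytochrome c, stood at 2949.9, 2624 and 2778 CPM at D0 and at 4299, 3977 and 4161 CPM at D5. It rose by 0.57 (SE 0.039, edgeR adjusted p = 2.24e-14), close to *mt-Nd2*. *mt-Co1* (chrM:5328-6872), the catalytic subunit of complex IV that reduces oxygen, was at 5309.9, 5137 and 5335 CPM in D0 cells and at 10044, 9089 and 9173 CPM in D5 cells. It rose by 0.84 (SE 0.038, edgeR adjusted p = 8.45e-19), and D5 replicate 1 was the highest of its group here and for each of the other 6 abundant mRNAs, as D0 replicate 2 was the lowest of its group for all 7.

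**Figure D2:**
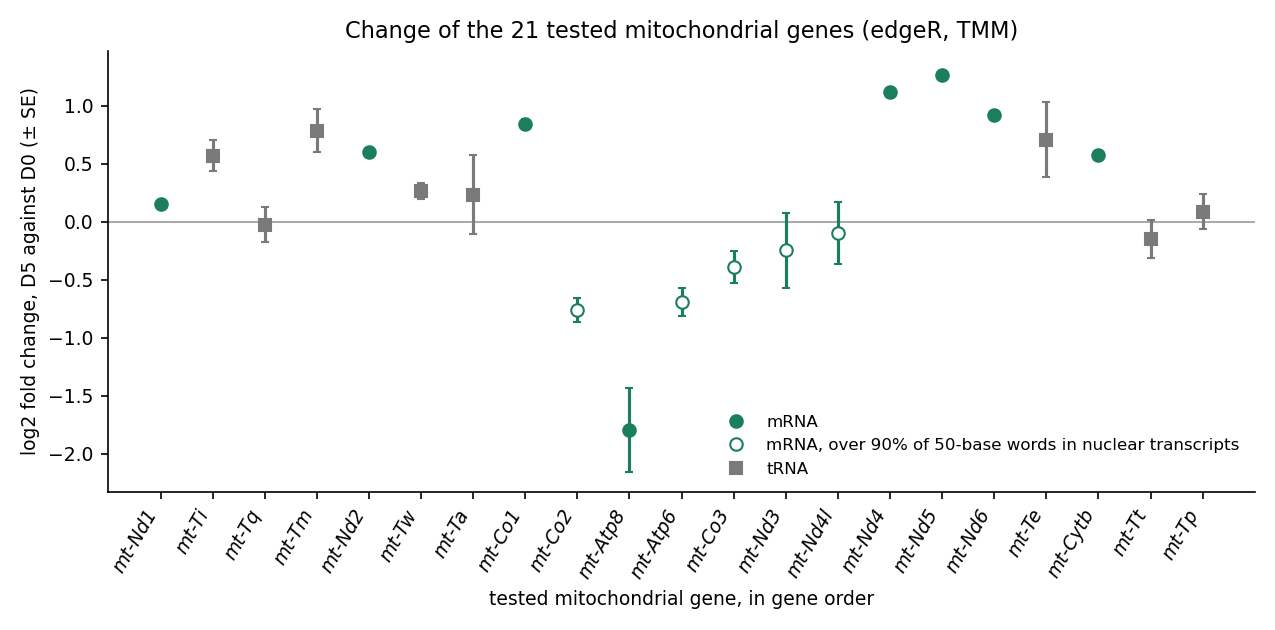
Points give the log2 fold change (D5 against D0, TMM scaling, bars ± SE) of the 21 tested members in gene order, circles for mRNAs and squares for tRNAs, open circles where over 90% of the gene's 50-base words also occur in nuclear transcripts. From *mt-Nd1* to *mt-Nd5* the filled circles other than *mt-Atp8* climb from 0.15 to 1.26, with *mt-Cytb* back at 0.57. Gene length differs along this order too, and neither position nor length was tested. The 6 genes from *mt-Co2* to *mt-Nd4l* lie below 0 (without scaling *mt-Nd1*, *mt-Nd2* and *mt-Cytb* lie below 0 too).

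In gene order on the plus strand, the log2 fold changes of the abundant mRNAs were 0.15 for *mt-Nd1*, 0.60 for *mt-Nd2*, 0.84 for *mt-Co1*, 1.11 for *mt-Nd4* and 1.26 for *mt-Nd5*, and the value fell back to 0.57 for *mt-Cytb*, the last mRNA. In the same order these genes are 957, 1038, 1545, 1378, 1824 and 1144 bases long, so the longer of the 6 mostly had the larger changes. *mt-Nd6*, on the minus strand, is 519 bases long and rose by 0.92. Position and length cannot be told apart in so few genes. This is a description of 6 genes of the same libraries and not a test of position or of length.

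Per length, *mt-Co1* was the most abundant of the 7 in both groups, and the order below it differed between them. At D0 the means were 3405 CPM per kb for *mt-Co1*, 2619 for *mt-Nd1*, 2433 for *mt-Cytb*, 1295 for *mt-Nd2*, 924 for *mt-Nd5*, 633 for *mt-Nd4* and 605 for *mt-Nd6*. Libraries of *mt-Nd1* and *mt-Cytb* overlapped, as did those of *mt-Nd4* and *mt-Nd6*, and the other neighbours did not. At D5 the order was *mt-Co1* (6107 CPM per kb), *mt-Cytb* (3624), *mt-Nd1* (2907), *mt-Nd5* (2217), *mt-Nd2* (1959), *mt-Nd4* (1370.1) and *mt-Nd6* (1142), with no overlap between any neighbours on this scale. *mt-Cytb* thus stood above *mt-Nd1* and *mt-Nd5* above *mt-Nd2* only at D5. This order takes the full length of each gene. Per 1000 of the 50-base words not shared with nuclear transcripts, *mt-Nd4* stood higher, with 1738 CPM at D0, above *mt-Nd2* (1481), and 3761 CPM at D5, above *mt-Nd1* (3064) and overlapping *mt-Cytb* (3786). Among all 54525 rows, *mt-Co1* ranked 2 by mean TPM, a length-scaled share of the library, in both groups, and *mt-Nd6*, the lowest of the 7, ranked 35 at D0 and 20 at D5.

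A ratio of 2 mRNAs within a library does not depend on how the library is scaled, and by such ratios the mitochondrial mRNAs did not change in step. The counts of *mt-Nd5* divided by those of *mt-Nd1* were 0.675, 0.694 and 0.651 at D0 and 1.44, 1.45 and 1.47 at D5, a ratio of means of 2.16. The same quotient was 0.349, 0.352 and 0.344 at D0 and 0.661, 0.678 and 0.698 at D5 for *mt-Nd4*, 1.95 times as high. The 3 libraries of a group lay close together and the groups did not overlap. For *mt-Nd6*, *mt-Co1*, *mt-Nd2* and *mt-Cytb* the ratio to *mt-Nd1* was 1.70, 1.61, 1.36 and 1.34 times as high at D5, again without overlap. Each of the 6 ratios gave p = 0.1 by the exact two-sided permutation test, the smallest possible (0.1 after adjustment over the 6). All 6 share *mt-Nd1* as denominator, which changed least of the abundant mRNAs. Their common direction follows from that choice, and only the differences between the ratios are informative.

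**Figure D3:**
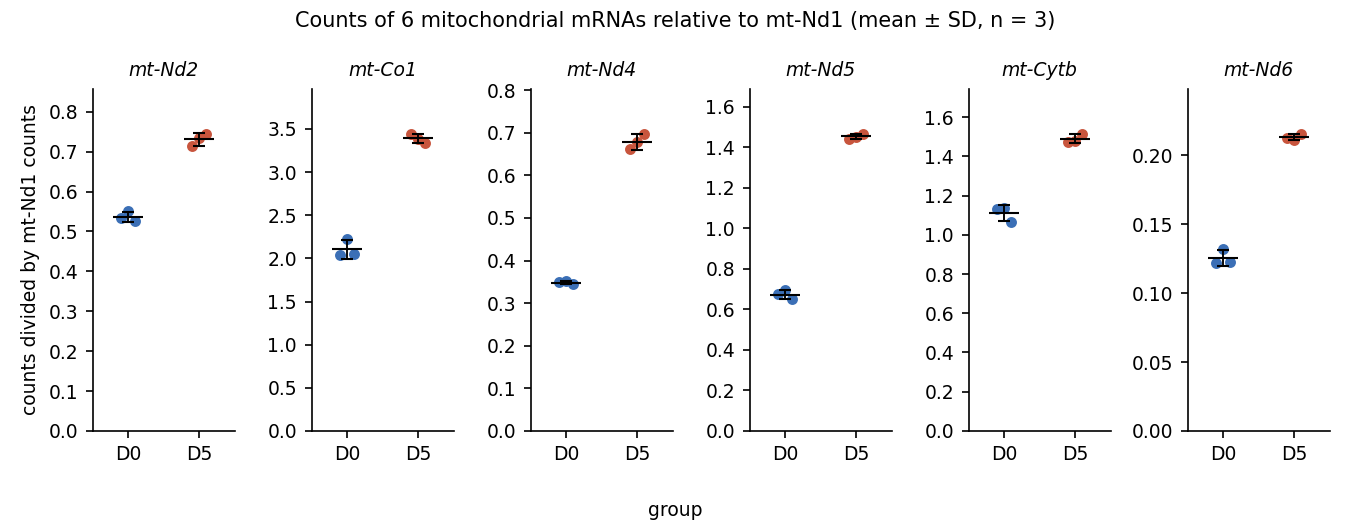
Each panel plots the counts of 1 mRNA divided by the counts of *mt-Nd1* in the same library, 3 libraries per group with mean ± SD, on axes that start at 0. In all 6 panels the D5 libraries lie above the D0 libraries, a direction that follows from *mt-Nd1* having changed least. The separation is widest for *mt-Nd5* (0.673 against 1.45 on average).

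Taking the sum of the 13 mitochondrial mRNAs as the library size, edgeR's test called 3 of the 13 higher and 9 lower at D5, beside 19.2% and 69.3% of all genes on that scale. The 13 are the parts of that sum, so a rise of some lowers the others, and 9 of 13 is close to the share of all genes. Of the 9, those from *mt-Co2* to *mt-Nd4l* held few and uncertain counts, as described below. *mt-Nd5* went from 11.4% ± 0.119 to 16.2% ± 0.126 of the mitochondrial mRNA counts (SD, n = 3), *mt-Nd4* from 5.89% ± 0.115 to 7.57% ± 0.192 and *mt-Nd6* from 2.12% ± 0.0397 to 2.38% ± 0.0193, and these were the 3 called higher. *mt-Nd1* fell from 16.9% ± 0.489 to 11.2% ± 0.0308, *mt-Cytb* from 18.8% ± 0.426 to 16.6% ± 0.203 and *mt-Nd2* from 9.08% ± 0.0583 to 8.15% ± 0.171. *mt-Co1* made up 35.5% ± 0.895 at D0 and 37.8% ± 0.661 at D5 and had no call (log2 fold change 0.089, SE 0.071, edgeR adjusted p = 0.223). The calls of *mt-Nd2*, *mt-Nd6* and *mt-Cytb* depended on single libraries. That of *mt-Nd2* (-0.15) was lost without D0 replicate 1 or 3 or any D5 replicate (-0.17 to -0.14), that of *mt-Nd6* (0.16) without D0 replicate 1 (0.15) or D5 replicate 3 (0.16), and that of *mt-Cytb* (-0.18) without D0 replicate 1 (-0.16). Both *mt-Nd2* (-0.10) and *mt-Cytb* (-0.13) also lost their calls when *mt-Co1* was left out of the sum.

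The remaining 6 mRNAs, from *mt-Co2* to *mt-Nd4l*, lie next to each other on the genome (chrM:7013-10173) and together held only 545 to 1966 counts per library. For 5 of them, 98.0% to 100% of all 50-base words of the gene also occur in annotated nuclear transcripts. The copies are *Gm28661* (*mt-Co2*), *Gm10925* (*mt-Atp6*), *Gm28437* (*mt-Co3*), *Gm28438* (*mt-Nd3*) and *Gm10222* (*mt-Nd4l*), which follow each other in a row of 7 pseudogenes at chr1:24611535-24616197. The row also holds *Gm28439*, identical to part of *mt-Nd4*, and *Gm29216*, which matches the last part of *mt-Co1*. *mt-Atp8* had no 50-base word in an annotated nuclear transcript, but in that row 233 bases between *Gm10925* and *Gm28661*, where it would lie, are annotated as no transcript and could not be compared. Reads that fit both places cannot be assigned by sequence, and how such reads were counted is not given in the sources used here, so the counts of these genes and of their copies are uncertain.

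**Figure D4:**
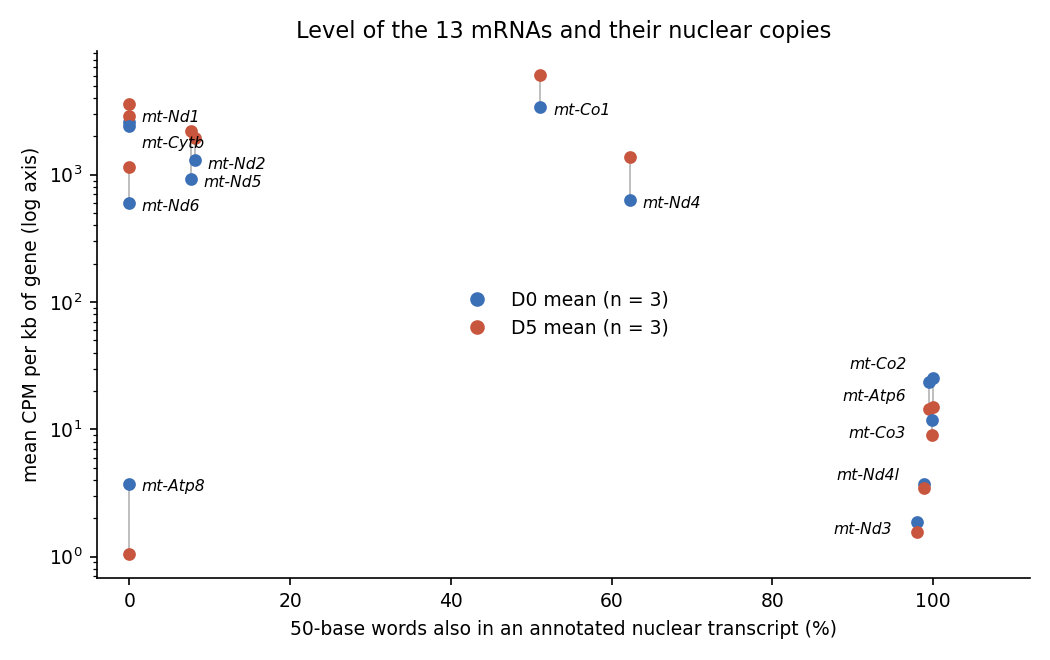
For each of the 13 mRNAs, the share of its 50-base words that also occur in an annotated nuclear transcript (horizontal axis, %) is plotted against its mean CPM per kb (log axis), D0 in blue and D5 in red, joined by a line. Genes at 98.0% or more lie at or below 25.4 CPM per kb, those at 62.2% or less lie at 605 or above, and *mt-Atp8*, at 0%, is the exception with 3.70 at D0 and 1.05 at D5.

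Of these 6, *mt-Co2*, *mt-Atp6*, *mt-Co3* and *mt-Atp8* were called lower and *mt-Nd3* and *mt-Nd4l* had no call, beside 40.8% of all genes called lower. *mt-Co2* had 754, 566 and 749 counts at D0 and 259, 222 and 282 at D5, or 17.4 ± 3.49 against 10.2 ± 1.17 CPM, and fell by 0.76 on the log2 scale (SE 0.10, edgeR adjusted p = 1.14e-07). All 3 D5 libraries were below the D0 libraries. *Gm28661*, the copy, had more counts than *mt-Co2* itself at D0, 1273, 1214 and 1295, and 245, 234 and 254 at D5, and fell by 1.69 (SE 0.068, edgeR adjusted p = 3.71e-20). The quotient of copy to gene counts was 1.69 to 2.14 at D0 and 0.901 to 1.05 at D5. The sum of the pair went from 49.0 ± 6.06 to 20.02 ± 1.52 CPM, without overlap.

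*mt-Atp6*, the proton channel subunit of the ATP synthase, had 688, 532 and 679 counts at D0 and 305, 173 and 259 at D5 and fell by 0.69 (SE 0.12, edgeR adjusted p = 6.64e-06), with no overlap in CPM. With its copy *Gm10925* added, 33.0 ± 4.03 CPM at D0 stood against 16.7 ± 3.30 CPM at D5. *mt-Co3*, a complex IV subunit, had 417, 306 and 387 counts at D0 and 212, 120 and 198 at D5. Its groups overlapped in CPM, whereas with its copy *Gm28437* added the D5 libraries (12.3 ± 2.51 CPM) were all below the D0 libraries (18.2 ± 3.35 CPM). The sums with copies of *mt-Co2*, *mt-Atp6* and *mt-Co3* hold reads that fit both places only if such reads were counted, which is not known. As the copies fell too, the sums add no separate support for a fall of the genes. The call of *mt-Co3* itself (log2 fold change -0.39, SE 0.14, edgeR adjusted p = 0.0102) was lost with DESeq2 (-0.39), with ERCC scaling (-1.09), without D0 replicate 1 (-0.25) and without D5 replicate 2 (-0.18).

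*mt-Atp8*, a small ATP synthase subunit, had 30, 26 and 34 counts at D0 and 5, 8 and 3 at D5, a log2 fold change of -1.79 (SE 0.36, edgeR adjusted p = 4.31e-05). *mt-Nd3* had 29, 20 and 29 counts at D0 and 22, 8 and 11 at D5 (log2 fold change -0.25, SE 0.32), and *mt-Nd4l* 48, 31 and 53 against 28, 14 and 35 (-0.098, SE 0.27). Their groups overlapped in CPM, and at this depth no difference was detectable for either. For the abundant *mt-Co1* and *mt-Nd4*, 51.1% and 62.2% of the 50-base words also occur in nuclear transcripts. Their pseudogenes held 0.0764% to 0.194% and 0.189% to 0.659% of the gene's counts, and with them added the ratios of mean CPM were 1.79 and 2.16. So few counts could not move the ratios, and the sum would not hold reads left out for fitting both places. It is thus no check on the effect of the copies.

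Of the 7 pseudogenes of the row 6 were called lower at D5, beside 40.8% of all genes. All 7 log2 fold changes were below 0 also without scaling and with ERCC scaling. Both settings move the median of all genes down, so these signs add no support. With ERCC scaling the calls of *Gm29216*, *Gm28439* and *Gm28438* were lost. *Gm10925* fell by 1.32, *Gm28437* by 0.75, *Gm29216* by 0.56, *Gm28439* by 0.38 with overlapping groups and *Gm28438* by 0.32 on the log2 scale, and only *Gm10222* of the 7 had no call (-0.31, SE 0.19). Outside the row, on chromosome 2, *Gm13341*, the more diverged copy of *mt-Co2* shown above, had 32, 28 and 52 counts at D0 and 29, 39 and 36 at D5 and was called higher with overlapping groups (0.57, SE 0.24, edgeR adjusted p = 0.0275), but turned to -0.11 without scaling and to -0.030 with ERCC scaling. *Gm13340*, a copy of *mt-Co1* at chr2:22588103-22589647 with 97.6% identity, had 100, 117 and 95 counts at D0 and 70, 80 and 90 at D5 and no call (log2 fold change 0.30, SE 0.14).

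The 22 tRNAs, adaptors for translation in the organelle, are 59 to 75 bases long and were counted little. Their summed share was 0.00300% ± 0.000179 of gene counts at D0 and 0.00335% ± 0.0000496 at D5 (exact two-sided permutation p = 0.1, the smallest possible, 0.133 adjusted over 4 shares). Of the 22, 8 were tested, 4 were called higher (*mt-Tw*, *mt-Ti*, *mt-Tm* and *mt-Te*) and none lower, beside 42.2% and 40.8% of all genes, where *mt-Ti* and *mt-Tw* turned to -0.11 and -0.42 (log2) without scaling and to -0.030 and -0.28 with ERCC scaling. The count of 0 lower was also 0 at an unadjusted p under 0.05 and with DESeq2. Without scaling 4 of the 8 were called lower and none higher (median log2 fold change -0.43), where 23.4% of the calls over all genes were higher. With ERCC scaling none was called in either direction. Each count of none here was also none at an unadjusted p under 0.05.

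*mt-Tw*, the tRNA for tryptophan, alone made up 43.7% of the tRNA counts at D0 and 44.0% at D5. It had 491, 510 and 519 counts at D0 and 362, 409 and 365 at D5, or 12.7 ± 0.512 against 15.2 ± 1.19 CPM, a log2 fold change of 0.26 (SE 0.069, edgeR adjusted p = 0.000969). *mt-Ti*, for isoleucine, had 113, 132 and 115 counts at D0 and 95, 111 and 127 at D5 (3.00 ± 0.142 against 4.46 ± 0.662 CPM) and rose by 0.57 (SE 0.13, edgeR adjusted p = 0.000239). Neither group overlapped the other in CPM for these genes.

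*mt-Tm*, for methionine, had 78, 67 and 79 counts at D0 and 53, 100 and 88 at D5 and rose by 0.79 (SE 0.18, edgeR adjusted p = 0.000258), with D5 replicate 1 well under the other D5 libraries. *mt-Te*, for glutamate, had at most 20 counts, its groups overlapped and its call (0.71, SE 0.32, edgeR adjusted p = 0.0456) was lost under 11 of 15 alternative settings, among them without D0 replicate 2 (0.59) or 3 (0.62) and without D5 replicate 1 (0.45) or 2 (0.75). The log2 fold changes of *mt-Tq*, *mt-Ta*, *mt-Tt* and *mt-Tp*, for glutamine, alanine, threonine and proline, were -0.026, 0.23, -0.15 and 0.088, with SEs of 0.15, 0.34, 0.16 and 0.15, and none passed the test.

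The other 14 tRNAs had too few counts to test, and 3 of them (*mt-Tk*, *mt-Tg* and *mt-Tr*) had none in any library. *mt-Tc*, for cysteine, had 11, 6 and 12 counts at D0 and 3, 0 and 2 at D5, and *mt-Tv*, for valine, had 0, 0 and 0 at D0 and 1, 4 and 2 at D5. Reads that run from a tRNA into the gene beside it were counted by rules not given in the sources used here.

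Of the 2 rRNAs, *mt-Rnr1* (chrM:70-1024) and *mt-Rnr2* (chrM:1094-2675), each had a single count in D0 replicate 3 and none in the other 5 libraries. This is under the floor of 3 counts used here for a gene not detected, so levels of these RNAs cannot be read from these libraries. Whether rRNA was removed, or polyadenylated RNA selected, before sequencing is not given in the sources used here.

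The nuclear genes that make, process and degrade mitochondrial RNA were counted from lists chosen for their function. Of 56 genes, all tested, 29 were called higher and 11 lower at D5, beside 42.2% and 40.8% of all genes. Their median log2 fold change was 0.13. Without scaling 3 were higher and 43 lower, where 23.4% of the calls over all genes were higher. With ERCC scaling 0 were higher (0 at an unadjusted p under 0.05) and 1 lower, where 32.6% of the calls over all genes were higher. In the lists that follow, the directions are those under TMM scaling, and without scaling the medians of all 5 lists lay below 0 (-0.77 to -0.20), as they did with ERCC scaling (-0.65 to -0.055).

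In the transcription list 7 of 9 genes were called higher and 0 lower, the latter also at an unadjusted p under 0.05 and with DESeq2, while without scaling 1 was higher and 4 lower. *Tfb2m*, which melts the promoter, went from 12.1 ± 0.419 to 26.5 ± 1.33 CPM, a log2 fold change of 1.13 (SE 0.059, edgeR adjusted p = 4.3e-17). *Mterf4* (0.72), *Tefm* (0.52), the elongation factor, *Tfam* (0.22), which packages the DNA and starts transcription, and *Polrmt* (0.13), the RNA polymerase, also rose. The RNA polymerase went from 46.4 ± 1.43 to 50.9 ± 2.09 CPM, with the D5 libraries above the D0 libraries.

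Of 12 genes for upkeep of mitochondrial DNA, 6 were called higher and 2 lower, but only 3 were higher with DESeq2, and without scaling 0 were higher and 11 lower. *Rrm2b*, a subunit of the enzyme that supplies deoxynucleotides in resting cells, rose by 0.74 (SE 0.047) and the helicase *Twnk* by 0.38 (SE 0.049), while *Polg*, the catalytic subunit of the DNA polymerase, fell by 0.29 (SE 0.041). Of 13 tRNA processing genes 9 were called higher and 2 lower (1 and 10 without scaling). *Hsd17b10*, a subunit of the RNase P that cuts the 5′ ends of the tRNAs, went from 25.4 ± 0.725 to 55.7 ± 2.64 CPM (log2 fold change 1.13), its partner *Trmt10c* rose by 0.48 and *Elac2*, which cuts the 3′ ends, by 0.49, while the nuclease subunit *1110008L16Rik* had no call (0.068, SE 0.064). Of 8 rRNA modification genes 4 were called higher and 0 lower (also 0 at an unadjusted p under 0.05 and with DESeq2), but 1 and 4 without scaling, led by *Nsun4* (0.89), a methyltransferase.

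In the list for mRNA stability and decay 3 of 14 genes were called higher and 7 lower, with a median of -0.093 (0 higher and 14 lower without scaling). *Tbrg4*, a FASTK family RNA-binding protein, went from 59.7 ± 0.873 to 31.3 ± 1.85 CPM (log2 fold change -0.93, SE 0.046, edgeR adjusted p = 8.15e-18). The degradation enzymes *Pnpt1* (-0.57), *Rexo2* (-0.51) and *Supv3l1* (-0.28) and the poly(A) polymerase *Mtpap* (-0.22) also fell. *Lrpprc* and *Slirp*, which bind and stabilise the mRNAs, had log2 fold changes of 0.11 and 0.20 and were called higher with overlapping groups, and *Grsf1* had no call (-0.0071, SE 0.038).

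Most nuclear partners of the mitochondrial subunits were called higher. Of 74 nuclear genes of complexes I, III, IV and V, 71 were called higher and 2 lower at D5, beside 42.2% and 40.8% of all genes. Their median log2 fold change was 0.82. Without scaling 36 were higher and 19 lower, where 23.4% of the calls over all genes were higher. With ERCC scaling 4 were higher and 0 lower (1 at an unadjusted p under 0.05), where 32.6% of the calls over all genes were higher. In complex I all 36 nuclear genes were called higher (median 0.87), while of 7 mitochondrial genes 5 were called higher and 2, both in full nuclear copies, had no call (median 0.60). In complex III all 9 nuclear genes were called higher (median 0.84), beside 0.57 for *mt-Cytb*. These are medians of different genes in the same libraries, and their difference was not tested.

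In complex IV 12 of 14 nuclear genes were called higher, with a median of 0.73, beside 0.84 for *mt-Co1* and, with uncertain counts, -0.76 for *mt-Co2* and -0.39 for *mt-Co3*, so that the median of the 3 mitochondrial genes was -0.39. The 2 nuclear genes that fell were *Cox6a1* (-0.63) and *Cox8a* (-0.31), the forms found in most tissues. Of the 12, *Cox8b* and *Cox7a1* reached the filter's level in all libraries only at D5, so that a higher value at D5 was partly built into their being tested. Without them 10 of 12 genes of complex IV and 69 of 72 in all were called higher. The muscle forms of *Cox6a1* and *Cox8a* moved in the opposite direction. *Cox6a2* went from 0.625 ± 0.268 to 66.5 ± 7.96 CPM and *Cox8b* from 0.0508 ± 0.0277 to 50.2 ± 4.47 CPM, the latter with a mean of 2 counts at D0, for which no fold is given. The pair of *Cox7a1*, a muscle form, and *Cox7a2*, its widely found counterpart, did not follow this pattern. *Cox7a2* was also called higher, from 92.9 ± 4.07 to 144 ± 3.08 CPM (0.64). In complex V 14 of 15 nuclear genes were called higher (median 0.72) and *Atp5g2* had no call (0.076, SE 0.050), beside *mt-Atp6* and *mt-Atp8*, which were called lower with counts that are uncertain as described.

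**Figure D5:**
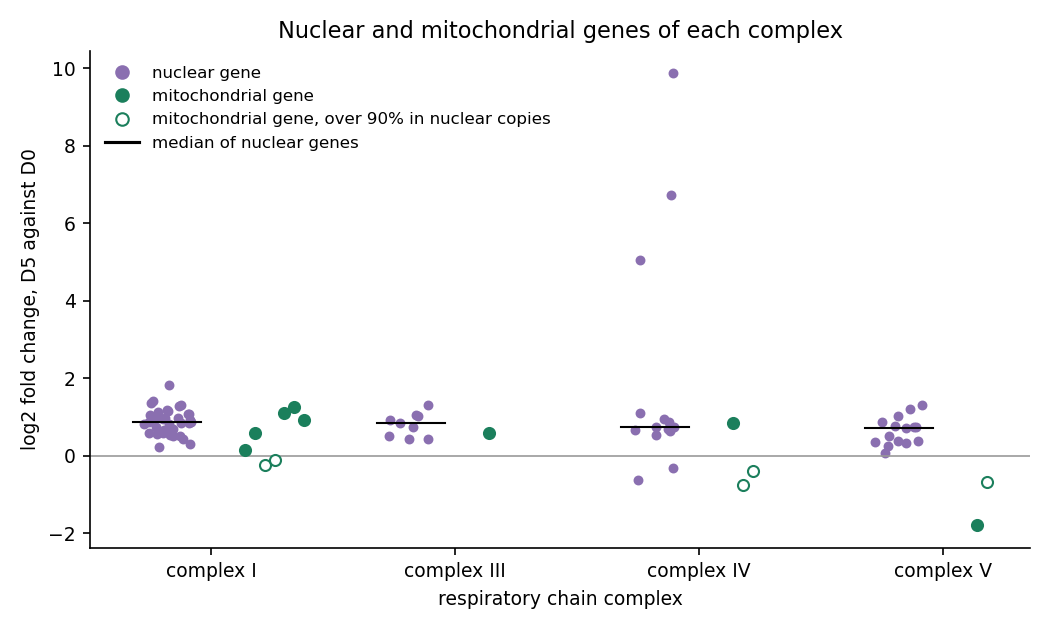
For each respiratory complex, log2 fold changes (D5 against D0, TMM scaling) of nuclear genes are in purple with their median as a line, and those of mitochondrial genes in green, open where over 90% of the gene's 50-base words occur in nuclear transcripts. Nuclear medians lie at 0.72 to 0.87 (without scaling 36 of the 74 genes are called higher and 19 lower). The filled mitochondrial points lie from 0.15 to 1.26 except *mt-Atp8* at -1.79. The highest purple point is *Cox8b*, with a mean of 2 counts at D0.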

How the data were processed

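Total RNA of 3 D0 and 3 D5 C2C12 cultures (RIN above 8.0) was sequenced on an Illumina instrument. The deposited values are whole read counts per gene, which per the labels were made with featureCounts on GRCm38 (mm10), with no normalization. The labels name Tophat2 as the aligner and DESeq2, while the study's methods name HISAT2. The annotation release, the strand setting, the length of the reads and the treatment of those that fit several places are not given in the sources used here. The 92 ERCC rows (0.720% to 2.09% of counts) and an unnamed row holding the column total were left out. The members were taken by their mt- symbols. Members, gene lists and tests were chosen with earlier results of these data known. Named genes were all members, the listed genes, and nuclear genes matching mitochondrial genes over at least 50% of their exonic bases at 95% identity or more, if they averaged 10 counts or more in a group.

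Counts were filtered with filterByExpr, scaled with TMM factors and tested with edgeR 4.0.16 (glmQLFit, glmQLFTest, R 4.3.3), D5 against D0 without covariates, with Benjamini-Hochberg adjustment over 16290 genes and a threshold of 0.05. The steps were also run on simulated counts in which few genes changed, so that run cannot check the scaling of these data. Shares and ratios were compared by exact permutation tests (scipy 1.17.1). Replicate libraries differed by more than sampling noise (chi-square per degree of freedom 2.28 to 3.71). Nuclear copies were found with blastn 2.17.0 and by shared 50-base words in GENCODE M21 transcripts, a word length chosen because the read length is unknown. The alternatives were DESeq2 1.42.0, other scalings and filters, a replicate block and leaving out each library.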

Additional observations from a re-analysis of the deposited data

How the results depend on the processing

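The shares of all mitochondrial genes, mRNAs and tRNAs kept their direction under all 9 alternatives, with a difference between the mean shares of 0.838 to 0.944 percentage points for all members when each library was left out in turn. The share of rRNA, at most 2 counts, ran from -2.57e-06 to 0 percentage points, and 0 was the value without D0 replicate 3.

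Scaling changed the calls most. With ERCC scaling 5560 genes were called changed, and 32.6% of these were higher. Among them were 0 mitochondrial genes higher, 0 genes of the RNA machinery higher and 1 lower. Of the nuclear respiratory chain genes 4 were higher and 0 lower (edgeR, with 1 of the latter at an unadjusted p under 0.05). Without scaling 14306 of 16290 genes were called changed, and 23.4% of these were higher. In that setting 4 mitochondrial genes were higher and 11 lower, 3 machinery genes higher and 43 lower, and 36 respiratory chain genes higher and 19 lower. With total counts alone 19 machinery genes were higher and 15 lower. Log2 fold changes that turned negative without scaling were -0.53 for *mt-Nd1*, -0.083 for *mt-Nd2*, -0.10 for *mt-Cytb*, -0.11 for *mt-Ti*, -0.42 for *mt-Tw*, -0.44 for *mt-Ta* and -0.59 for *mt-Tp*. With ERCC scaling they were -0.42 for *mt-Nd1*, -0.0018 for *mt-Cytb*, -0.030 for *mt-Ti*, -0.28 for *mt-Tw*, -0.40 for *mt-Ta* and -0.53 for *mt-Tp*. Both scalings set a different level for all genes at once, as the shifted medians given with the results show. Without scaling, the lower gene counts of the D5 libraries (25449759 to 25811300, against 36555048 to 40895840 at D0) enter every log2 fold change. Beyond that the cause was not tested.

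When each library was left out in turn, mitochondrial genes called higher numbered 10 to 11 and lower 3 to 4. Genes without a call whose sign turned were *mt-Tq* (-0.29 to 0.22), *mt-Nd3* (-0.76 to 0.017), *mt-Nd4l* (-0.39 to 0.19) and *mt-Tp* (-0.016 to 0.16), and the cause was not tested. With the replicate number as a block 13558 genes were called changed, 10 mitochondrial genes higher and 4 lower, and the only member whose call it changed was *mt-Te*. Same-numbered D0 and D5 libraries did not deviate together to a degree that would pair them (r = 0.033, 0.064 and 0.028 over 16290 genes), although each library correlated best with its own number. Depth limits the tRNAs and the 6 mRNAs from *mt-Co2* to *mt-Nd4l*, and the floor of 3 counts in a library is 0.073 to 0.12 CPM.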
